A study of Mus musculus with 124 samples.

Results

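The liver was followed for a week after a single 6 h sleep deprivation, with RNA sequencing of mice killed on day 3 and day 8 and undisturbed mice killed at the same clock time. These were 25 liver libraries of the 124 libraries of the series, 1 per mouse, taken by the time and condition in their labels: 12 from deprived mice and 13 from controls. The deprived mice were kept awake by gentle handling from light onset, T24 in hours of the experiment, until T30. They were then left to sleep and killed at T72 or T78 (day 3, which is 42 or 48 h after the end of deprivation) or at T192 or T198 (day 8, 162 or 168 h after it), with n = 3 at each time. Controls were never deprived and were killed at zeitgeber time 0 (ZT0, light onset, n = 8, the reference for T72 and T192) or ZT6 (n = 5, the reference for T78 and T198). Their labels give times of T0, T24 or T6, and none carries a day 3 or day 8 time. Some control codes (J70N1, J76N1) begin like those of day 8 livers (J70S1, J76S1). The later comparisons are thus matched by clock time, but not by labelled day of the experiment. To ask how closely the genes moved by deprivation had returned, 3 deprived livers taken at T30 were set against the same ZT6 controls. All mice were 11 to 12 weeks old, had free access to food and 12 h of light a day. No genetic change or drug is named in the labels, and the sources used here do not give strain or sex.

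The liver times feeding, sterol, bile acid and drug metabolism by the day, through its own clock and through signals from the body such as temperature, feeding, glucocorticoids and growth hormone. Keeping a mouse awake in its rest phase changes several of these signals at once. Heat-shock and endoplasmic reticulum (ER) chaperones are classical targets of the cell's responses to protein load and temperature, and both classes follow a daily cycle in mouse liver.

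No gene passed the test against controls of the same clock time on day 3 or day 8. With limma and p-values adjusted by Benjamini-Hochberg over all 13338 named genes (threshold 0.05), 0 genes were called at T72, T78, T192 and T198, or 0% at each. At T30, by contrast, 1046 genes were higher and 1061 were lower than in ZT6 controls, 7.84% and 7.95% of the genes tested and together 15.8%. The lowest adjusted p was 0.294 at T72, 0.233 at T78, 1 at T192 and 0.579 at T198. Averaging the 2 times of a day called 0 genes on day 3, 0 on day 8 and 0 in the difference of day 8 and day 3, where 1686 (12.6%), 363 (2.72%) and 482 genes (3.61%) had an unadjusted limma p under 0.05.

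A gene that misses the threshold has not been shown to be back at its control level, so the spread of unadjusted p-values and the intervals were read as well. Unadjusted p-values under 0.05 were met by 904 genes at T72 (6.78%), 1095 at T78 (8.21%), 250 at T192 (1.87%) and 589 at T198 (4.42%), against 3945 at T30 (29.6%). An even spread of p-values would put 667 genes there. Day 3 lay above that number at both clock times and day 8 below it at both. The median half-width of a gene's 95% interval was 0.28 on the log2 scale at T72 and at T192, 0.30 at T78 and 0.31 at T198, which is 1.22-fold to 1.24-fold. Genes with wider intervals could hide a difference of that size or more. The median absolute log2 change over all genes was 0.115 at T72, 0.122 at T78, 0.0824 at T192 and 0.103 at T198, against 0.196 at T30.

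**Figure D1:**
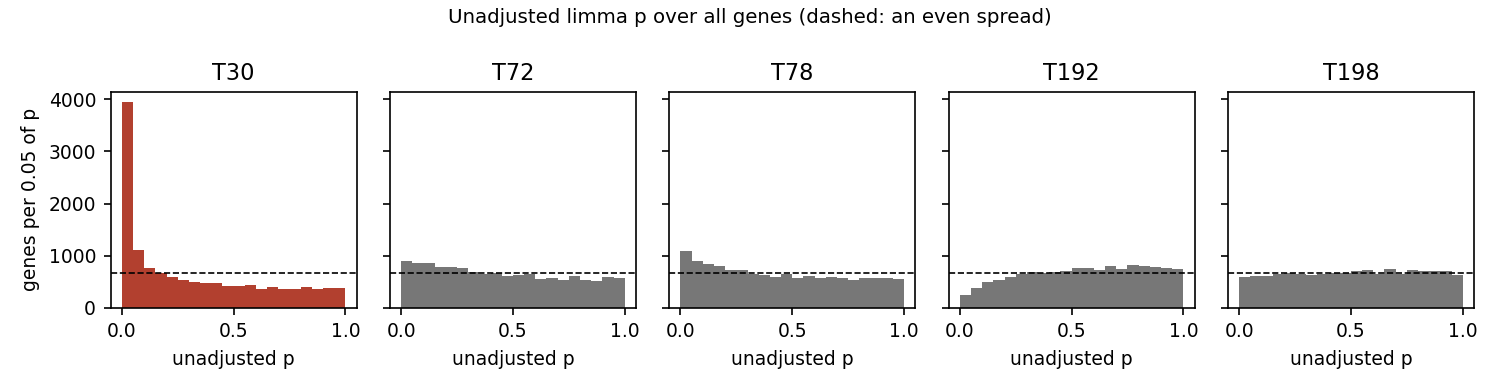
Histograms of the unadjusted limma p-values of all 13338 genes (x axis, 20 bins from 0 to 1; y axis, genes per bin) at T30, T72, T78, T192 and T198, each against controls of the same clock time. The first bin holds 3945 genes at T30, 904 at T72, 1095 at T78, 250 at T192 and 589 at T198, and the dashed line marks the 667 genes of an even spread.

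Several features of the samples bear on these counts. Day 3 lies wholly in label batch 1 and day 8 wholly in batch 2, so day and batch cannot be told apart except through the controls, which span both (4 and 4 at ZT0, 3 in batch 1 and 2 in batch 2 at ZT6). The deposited liver values had a further unlabelled factor of 3 levels removed before deposit, which the fit does not know of and which makes p-values too small. Among the T72 livers, T72S2 and T72S4 were farthest apart. The root mean square log2 difference was 0.59 between them, 0.44 between T72S3 and T72S4 and 0.40 between T72S2 and T72S3. Pairs of ZT0 controls ranged from 0.33 to 0.53. T72S2 had another level of the removed factor than the other T72 livers. Without T72S4 12 genes were called at T72 and 31 on the day 3 average, against 0 and 0 with it. The lone call at T78 under any left-out library was Palb2, a DNA repair gene, after removal of the control J76N1. One ZT6 control, T6N3, had high chaperone transcripts, and its removal gave 1999 genes at T30. Removal of T30S1 gave 792 genes at T30. The livers carried the transcripts of hepatocytes: all 10 defining markers were measured, among them Alb and Apoa1, and their median log2 change lay between -0.11 and 0.09 at the 4 later times.

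As a group the T30 genes lay close to control levels at all 4 times, with small medians whose direction was not the same at each. The 1046 genes higher at T30 (risers) had a median log2 change of 0.52 there, and the 1061 lower genes (fallers) had -0.58; these values chose the genes and are a description. At T72 the medians were 0.07 for risers and -0.06 for fallers, the same directions as at T30. At T192, against the same ZT0 controls, they were -0.03 and 0.03, the opposite directions. At T78 they were 0.08 and -0.05 and at T198 0.11 and -0.11, with the direction of T30, but T30, T78 and T198 share the ZT6 controls, so a control that is low in a gene raises it at all 3 times. The median over all genes was between -0.002 and 0.013 at the 4 times.

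The same-batch comparison removes that shared library for day 8. With T30 set against the batch 1 controls and T198 against the batch 2 controls, 900 risers and 888 fallers were called at T30, and their medians at T198 were 0.07 and -0.09. At T78, which still shares its batch 1 controls with T30, they were 0.13 and -0.07. At T72, against batch 1 controls of ZT0, they were 0.02 and 0.001, and at T192, against batch 2 controls of ZT0, 0.008 and -0.005.

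**Figure D2:**
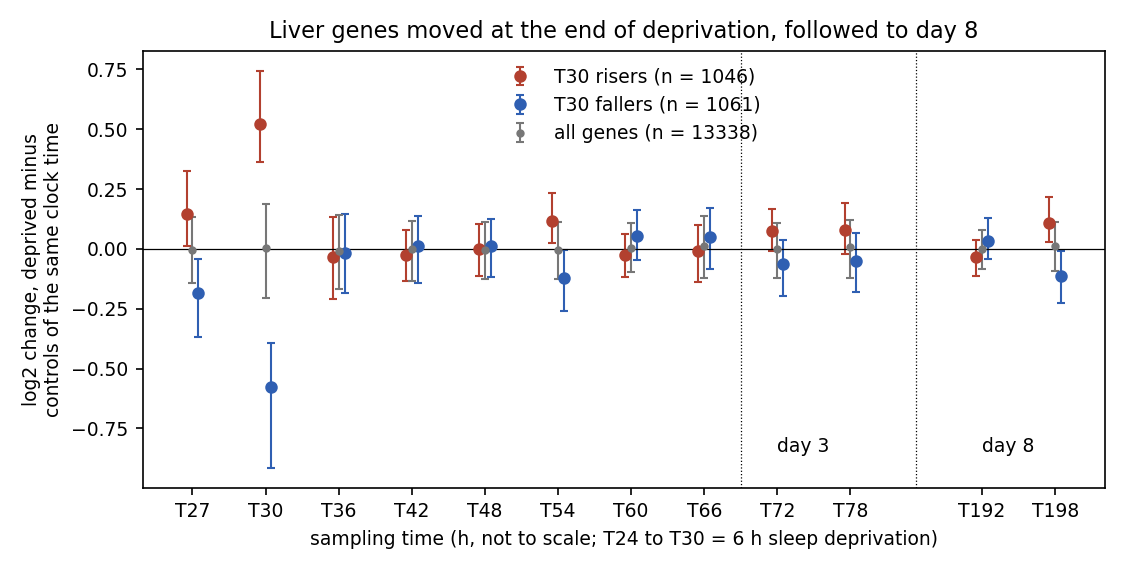
Median log2 change (y axis; deprived minus controls of the same clock time) of the 1046 T30 risers, the 1061 T30 fallers and all 13338 genes at each sampling time (x axis, hours, not to scale), with bars from the lower to the upper quartile. The risers stand at 0.52 at T30 and at 0.07, 0.08, -0.03 and 0.11 at T72, T78, T192 and T198, and the fallers stand at -0.58 at T30 and at -0.06, -0.05, 0.03 and -0.11 at those times.

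The path between T30 and day 3 was not a smooth decline. The risers' median was -0.03 at T36, -0.02 at T42 and 0.001 at T48, and the fallers' was -0.02, 0.01 and 0.01 at these times. Both medians were thus near 0 within 6 h of the end of deprivation, but single genes were not all back. At T36 64 of the 1046 risers and 42 of the 1061 fallers were called in limma, beside 422 of all 13338 genes. Of the risers 12.3% were higher and 15.1% lower there at an unadjusted p under 0.05, against 8.64% and 9.46% of all genes. At T42 and T48 0 risers and 0 fallers were called. At T54, again compared with the shared ZT6 controls, the risers' and fallers' medians were 0.12 and -0.12, and at T60 and T66 they were within 0.06 of 0. Every time at which they again leaned to the side of T30 by 0.1 or more was a ZT6 time.

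Single genes at ZT0 leaned the way of the medians. At T72, 65 of the 1046 risers were higher at an unadjusted p under 0.05 (6.21%, against 2.95% of all genes) and 4 were lower (0.382%, against 3.82%). Of the 1061 fallers, 99 were lower there (9.33%) and 17 were higher (1.6%). At T192 the counts ran the other way and were smaller: 4 risers were higher and 20 lower, and 21 fallers were higher and 3 lower, against 0.862% of all genes higher and 1.01% lower. T72 and T192 are set against other control mice than T30, but the batch term of the fit is estimated from all controls and enters all 3 contrasts, with T72 in batch 1 and T192 in batch 2. With same-batch controls, which need no such term, the lean at T72 and T192 was within 0.03 of 0. After adjustment 0 of the T30 genes were called at either time.

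The intervals set bounds on what could remain. At T72 the 95% interval lay wholly within 1.5-fold of the controls for 75.2% of risers and 67.4% of fallers, beside 67.8% of all genes. At T192 these shares were 79.5%, 73.4% and 71.9%. They were 73.2%, 65.8% and 65.7% at T78 and 72.1%, 65.4% and 66.4% at T198. At T30 itself 26.1% of risers and 21.2% of fallers met the bound. The T30 genes were called by p in this fit, which favours narrow intervals, so their shares cannot be weighed against that of all genes. Only 432 risers and 516 fallers had moved by more than 1.5-fold at T30. Of these together, 41.5% met the bound at T72, 38.6% at T78, 48.7% at T192 and 35.7% at T198. A further bound asked whether the interval end on the T30 side stayed below 0.5 of the T30 change. A shift to the opposite side also meets it. In the full lists it was met by 29% of risers and 35.1% of fallers at T72 and 26.5% and 37.3% at T78. The shares were 57.7% and 57.5% at T192, and 15% and 18.1% at T198. At T72, T78 and T198 most T30 genes were thus not bounded below 0.5 of their T30 change. At T192 most were, but there the medians leaned opposite to T30 (-0.03 and 0.03). The median half-width was 0.28 at both T72 and T192, so the larger share at T192 does not mark a closer return.

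The genes that moved most at T30 were also mostly inside 2-fold later. Of the 153 risers above 2-fold at T30 (median log2 change 1.37), 1 was above 2-fold in the same direction at T72, 15 at T78, 0 at T192 and 9 at T198. Of the 210 fallers past 2-fold (median -1.28), 1, 6, 0 and 10 were. Over all genes 35 were past 2-fold at T72, 125 at T78, 28 at T192 and 85 at T198. For these large risers the medians were 0.12, 0.20, -0.15 and 0.28 at the 4 times, and for the large fallers -0.09, -0.14, 0.12 and -0.25.

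A score per mouse shows how the livers differed within a group. It is the mean of the T30 risers minus the mean of the T30 fallers, on the log2 scale after the batch term, with the controls of the same clock time at 0. At T30 it was 1.71, 1.14 and 1.29 in the 3 deprived livers. At T78 it was 0.248, 0.127 and 0.122 and at T198 0.289, 0.255 and 0.279, against -0.05 to 0.13 in the 5 ZT6 controls. Every T198 liver was above every ZT6 control, by a margin much smaller than the distance to T30, and 1 of the 3 T78 livers was. Because the same controls helped to choose the genes, the score of those controls is pulled away from T30. With genes chosen on batch 1 controls and scored against batch 2 controls, the T198 livers stood at 0.144, 0.153 and 0.196 and the 2 controls at 0.099 and -0.099.

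At ZT0 the groups overlapped. The score was 0.378, 0.255 and -0.13 at T72 and -0.126, -0.207 and 0.055 at T192, against -0.144 to 0.196 in the 8 ZT0 controls. The T72 livers were spread more widely (0.168 ± 0.265, SD, n = 3) than the ZT0 controls (SD 0.133), and the 1 low value was library T72S4. The T192 livers averaged -0.093 ± 0.134 (SD, n = 3).

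**Figure D3:**
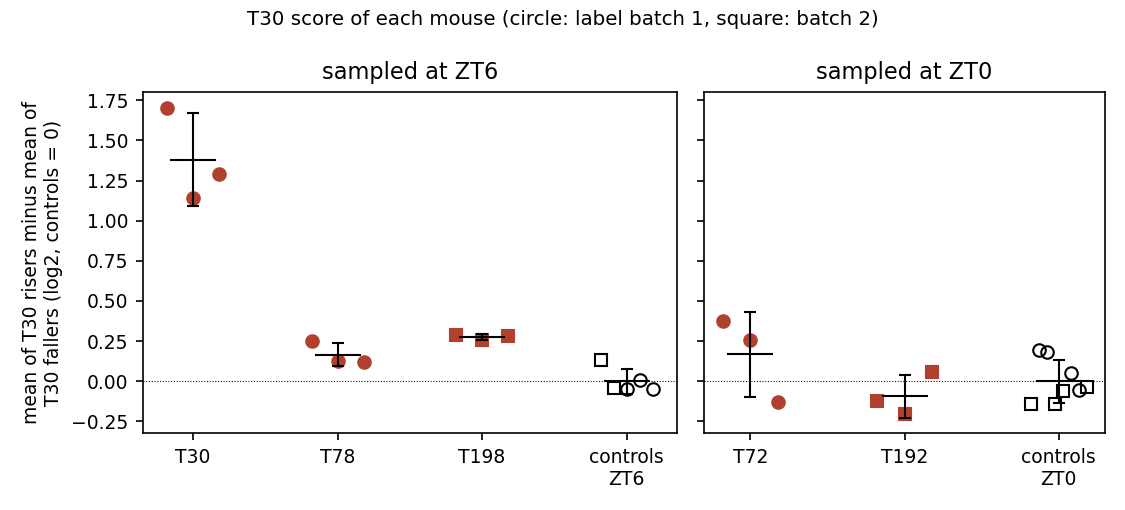
T30 score of each liver (y axis, log2; risers minus fallers, controls of the same clock time at 0) for livers taken at ZT6 (left: T30, T78, T198, controls) and ZT0 (right: T72, T192, controls); circles are label batch 1, squares batch 2, open symbols controls, and bars show mean and SD. The T30 livers lie between 1.14 and 1.71, the T78 and T198 livers between 0.122 and 0.289, and at ZT0 deprived livers and controls overlap.

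ER chaperones and the ER-associated degradation machinery rose at T30, and the median of the class was below 0 at the later times. Of 20 measured, 14 were called higher and 0 lower at T30 (background 7.84% higher), with a median of 0.53. At the later times 0 of 20 were called, and the medians were -0.09 at T72, -0.20 at T78, -0.20 at T192 and -0.10 at T198. Single members lay on both sides of the controls, from -0.57 (Dnajb9) to 0.02 (P4hb) at T78 and from -0.24 (Hspa5) to 0.06 (Canx) at T198. The count of 14 rests on T30S1, the liver with the highest score, and was 3 without it.

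Many genes of this class carry the ER stress element, CCAAT and CCACG with 9 bases between them, through which ATF6 acts with NF-Y. Both strands of the 250 bases before the start were searched in RefSeq promoters (build GRCm38.p6). The element was in 8 of the 18 promoters of this class that could be matched (Calr, Canx, Creld2, Dnajc3, Hsp90b1, Hspa5, Pdia6 and Syvn1), in 0 of 19 promoters of cytosolic heat-shock genes, in 0.188% of 10099 promoters of tested genes and in 0.113% of all 32851 promoters. A match is a description of the letters and not evidence of binding. Shown here are the 150 bases before the start of the 3 genes with the element that were called at T30 with the largest changes and whose stretch lies outside annotated exons of the gene, with the element in capitals, because the transcripts of these genes are followed below.
Creld2 (chr15:88819496-88819645, plus strand, element on the opposite strand and 108 bases before the start): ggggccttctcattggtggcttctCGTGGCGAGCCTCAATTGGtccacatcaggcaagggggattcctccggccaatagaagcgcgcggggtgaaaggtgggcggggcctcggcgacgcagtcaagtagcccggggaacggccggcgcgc
Syvn1 (chr19:6046426-6046575, plus strand, element as written and 26 bases before the start): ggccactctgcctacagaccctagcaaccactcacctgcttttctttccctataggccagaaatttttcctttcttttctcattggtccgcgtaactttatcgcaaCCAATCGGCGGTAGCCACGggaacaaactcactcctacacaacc
Dnajc3 (chr14:118937782-118937931, plus strand, element as written and 87 bases before the start): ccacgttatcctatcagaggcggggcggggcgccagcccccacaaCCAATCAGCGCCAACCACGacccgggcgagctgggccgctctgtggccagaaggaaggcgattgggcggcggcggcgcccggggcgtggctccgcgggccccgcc

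Creld2 encodes an ER-resident protein induced by ER stress (chr15:88819646-88826683, plus strand). Its deposited level was 5.45, 5.81 and 6.30 log2 CPM at T30, 3.55, 3.65 and 3.75 at T78 and 4.14, 4.35 and 4.52 at T198, against 3.88, 3.90, 4.31, 4.31 and 5.12 in ZT6 controls. The T30 livers were above all controls, the T78 livers below all controls, and the T198 livers among them. At ZT0 the level was 3.88, 5.27 and 6.47 at T72 and 4.66, 5.30 and 5.85 at T192, against 4.83 to 6.22 in controls (median 5.60). The T72 livers spanned a wider range than the 8 controls. The fitted log2 change of Creld2 was 1.67 ± 0.42 (SE) at T30, and then -0.21 ± 0.39, -0.53 ± 0.42, -0.47 ± 0.39 and -0.15 ± 0.43 at T72, T78, T192 and T198. The T30 call of Creld2 was lost without T30S1 (adjusted p 0.0582). The 95% interval at T198 ran from -1.02 to 0.71, so a 1.5-fold difference in either direction was not detectable for this gene.

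Syvn1, the ubiquitin ligase of ER-associated degradation, was measured more tightly. It stood at 7.02, 7.31 and 7.97 log2 CPM at T30, 5.68, 5.93 and 5.97 at T78 and 5.81, 5.94 and 6.02 at T198, against 5.84, 5.84, 5.92, 6.01 and 6.79 in ZT6 controls. The T78 and T198 livers lay with the 4 lower controls, and the high control was T6N3. At T30 the fitted change of Syvn1 was 1.35 ± 0.23 (SE). Later changes were -0.01 at T72 (95% interval -0.45 to 0.43), -0.23 at T78 (-0.69 to 0.24), 0.02 at T192 (-0.42 to 0.46) and -0.15 at T198 (-0.63 to 0.33). Hspa5, the main ER chaperone BiP, was higher at T30 by 0.91, a call lost without T30S1 (adjusted p 0.111) or with same-batch controls (adjusted p 0.0605), and then had changes of -0.18, -0.37, -0.34 and -0.24. Dnajc3, a BiP co-chaperone, was higher at T30 by 0.45, a call lost without T30S1 (adjusted p 0.0586) or T30S3 (0.0724), with same-batch controls (0.0502) or without the batch covariate (0.106), and then had -0.07, -0.17, -0.25 and 0.05. Xbp1, a transcription factor of the unfolded protein response, was higher by 0.78, a call lost without T30S1 (adjusted p 0.111), and then had 0.04, -0.21, -0.20 and -0.10.

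Both clock times bear on how large the T30 rise was. Syvn1 reached 6.87 to 7.54 log2 CPM in ZT0 controls and 5.84 to 6.79 in ZT6 controls, so the level of the T30 livers, taken at ZT6, was near that of undisturbed mice 6 h earlier in the clock. The same held for Creld2. The T78 and T198 livers had lower levels of both genes than the T192 livers, and T72S4 had the low value of both genes at T72.

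Cytosolic heat-shock genes rose at T30, and on day 3 and day 8 their medians were close to 0. Of 24 measured, 19 were called higher (background 7.84%) and 0 lower at T30 (median 0.69; 14 to 19 called when any 1 library was left out). At the later times 0 were called, and the medians were 0.00 at T72, -0.00 at T78, 0.05 at T192 and 0.13 at T198.

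Hsph1 encodes an Hsp110 nucleotide exchange factor (chr5:149614287-149636376, minus strand). It stood at 6.56, 6.61 and 7.09 log2 CPM at T30, 4.10, 4.34 and 4.54 at T78 and 4.92, 4.92 and 5.04 at T198, against 4.19, 4.24, 4.34, 4.41 and 5.81 in ZT6 controls. The T198 livers were above 4 of the 5 controls and below T6N3, which lay far from the other 4. At ZT0 the level was 5.39, 6.37 and 6.62 at T72 and 6.06, 6.48 and 6.71 at T192, against 6.06 to 6.78 in controls (median 6.25). The low T72 value was that of T72S4. The fitted change of Hsph1 was 2.18 ± 0.28 (SE) at T30 and -0.15 ± 0.26, -0.25 ± 0.28, 0.09 ± 0.26 and 0.33 ± 0.29 at T72, T78, T192 and T198.

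Stip1, which hands clients from Hsp70 to Hsp90, was higher by 0.99 ± 0.14 (SE) at T30. It had later changes of -0.01, 0.00, 0.00 and 0.08, and its intervals of -0.28 to 0.26 at T72 and -0.27 to 0.27 at T192 lay wholly within 1.5-fold. Chordc1, an Hsp90 co-chaperone, was higher by 0.94 at T30 and then had 0.06, -0.10, -0.05 and 0.04. Hspa1b, the inducible Hsp70, was higher by 1.62 at T30 and had 0.05, -0.11, 0.58 and 0.67 later, but its T30 call was lost without T30S1, T30S4, T6N2 or T6N4 (adjusted p 0.051 to 0.199), and its transcript is nearly identical to that of Hspa1a and the split of reads between them is uncertain.

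Cirbp, an RNA-binding protein induced by mild cooling, fell at T30, opposite to the heat-shock genes (chr10:80165985-80172786, plus strand). It stood at 3.33, 3.33 and 3.46 log2 CPM at T30, 4.81, 4.84 and 5.04 at T78 and 4.19, 4.37 and 4.61 at T198, against 4.39, 4.75, 4.88, 5.02 and 5.24 in ZT6 controls. The T78 livers lay among the controls, and 2 of the 3 T198 livers lay below the lowest of them. At ZT0 it was 4.10, 4.12 and 4.25 at T72 and 3.59, 4.08 and 4.12 at T192, against 3.57 to 4.33 in controls (median 4.04). For Cirbp the fitted change was -1.50 ± 0.20 (SE) at T30 and 0.19, 0.02, -0.00 and -0.44 at T72, T78, T192 and T198. The change at T198 had a 95% interval of -0.85 to -0.03 and an adjusted p of 0.997 in limma, so it did not pass the test. Rbm3, the other cold-inducible gene examined, had -0.40 at T30 without being called. It then had 0.18, 0.05, 0.22 and 0.03 at T72, T78, T192 and T198.

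**Figure D4:**
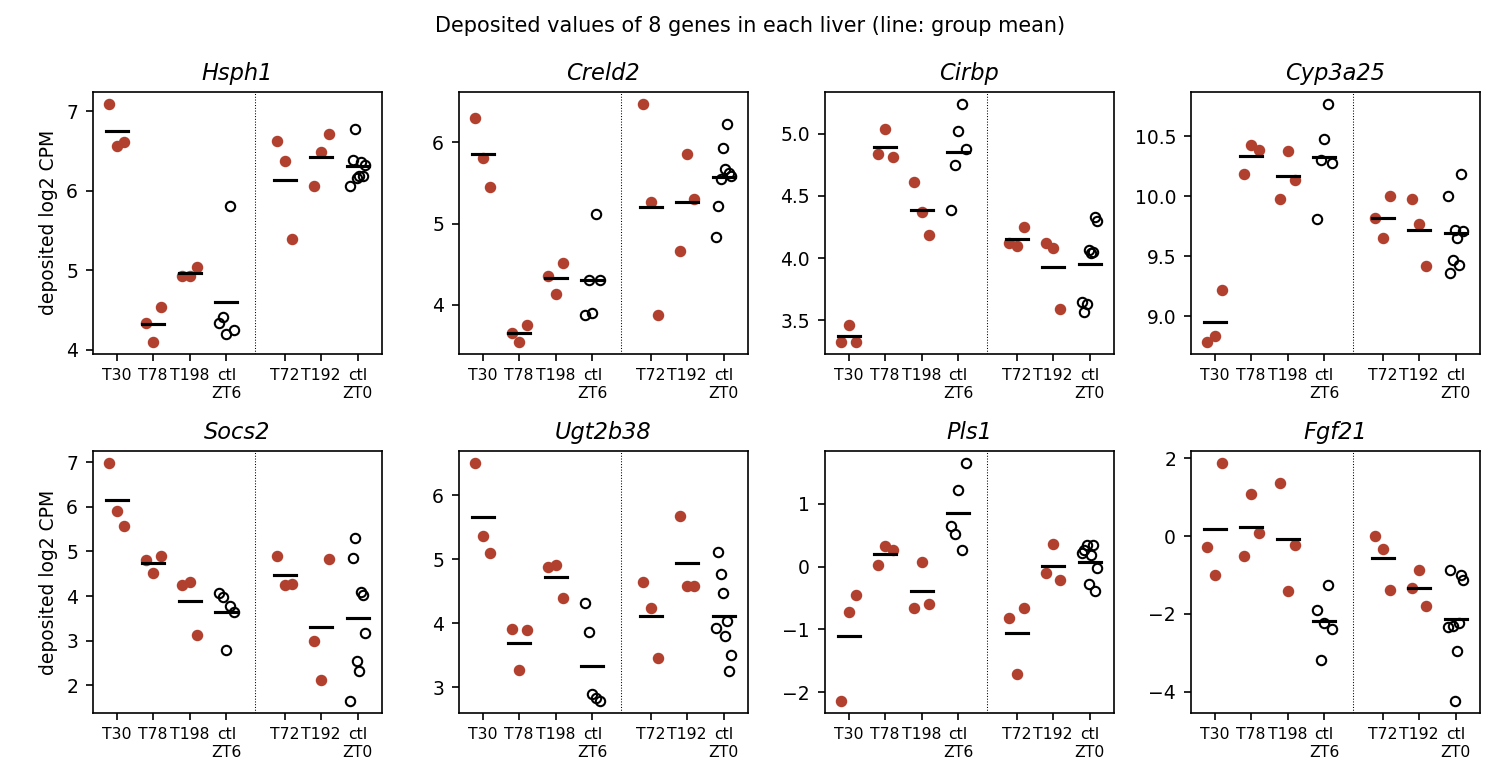
Deposited log2 CPM (y axis) of Hsph1, Creld2, Cirbp, Cyp3a25, Socs2, Ugt2b38, Pls1 and Fgf21 in every liver, at T30, T78, T198 and in ZT6 controls (left of the dotted line) and at T72, T192 and in ZT0 controls (right of it); filled points are deprived mice, open points controls and bars group means. For Hsph1 the T30 livers lie at 6.56 to 7.09 and the T78 livers at 4.10 to 4.54, among the lower ZT6 controls, while Fgf21 at T198 lies at -1.40 to 1.37 and partly above the highest ZT6 control, -1.25.

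Ribosome biogenesis factors rose in part at T30. Of 29 measured, 10 were called higher (background 7.84%) and 0 lower at T30 (median 0.35; 2 called without T30S1), and 0 were called later. The medians were 0.15 at T72, 0.04 at T78, -0.05 at T192 and 0.04 at T198. Ppan, needed for large ribosomal subunits, was higher by 0.96 at T30 a call lost without T30S1 (adjusted p 0.205), and then had 0.67, 0.36, -0.16 and 0.58, with an adjusted p of 0.734 at T72. Nop2, an rRNA methyltransferase, was higher by 0.85 and then had 0.26, 0.12, -0.19 and 0.22.

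Genes downstream of growth hormone, whose pulse pattern sets sex differences in the mouse liver, were next among the T30 changes. Of 19 sex-biased genes measured, 6 were called higher (background 7.84%) and 0 lower at T30 (median 0.63), and the count was 3 without T30S1, T6N2 or T6N3. Later 0 were called, with medians of 0.11 at T72, 0.28 at T78, -0.06 at T192 and 0.27 at T198. Of 15 genes of the growth hormone and IGF axis, 3 were called higher at T30 (background 7.84%), 1 without T30S1 or T6N2, and 0 later. Socs2, a feedback inhibitor of growth hormone signalling, stood at 5.56, 5.91 and 6.98 log2 CPM at T30, 4.51, 4.81 and 4.90 at T78 and 3.13, 4.25 and 4.31 at T198, against 2.79, 3.65, 3.78, 3.97 and 4.07 in ZT6 controls. All 3 T78 livers were above all 5 controls in deposited values, as were 2 of the 3 T198 livers. At ZT0 Socs2 ranged from 1.65 to 5.30 in controls (median 3.60), and 4.24, 4.26 and 4.90 at T72 and 2.12, 2.99 and 4.84 at T192 lay inside that range. The fitted change of Socs2 was 2.30 ± 0.75 (SE) at T30 and 0.72, 0.89, 0.07 and 0.55 at T72, T78, T192 and T198, and with an interval of -0.61 to 2.39 at T78 neither a return nor a lasting rise of 2-fold could be told. The T30 call of Socs2 was lost without T30S1 (adjusted p 0.193), T6N2 (0.085) or T6N4 (0.056).

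Igfals, the serum carrier subunit for IGF1 that is made by hepatocytes, was higher by 0.83 ± 0.16 (SE) at T30, with 0.25, 0.09, -0.38 and 0.28 later. At T198 its levels of 6.47, 6.49 and 6.51 log2 CPM were above all ZT6 controls (6.10 to 6.34), with an adjusted p of 0.997. Onecut1, a hepatocyte transcription factor, was higher by 3.63 ± 1.05 at T30 but varied widely among controls, from 0.08 to 4.73 at ZT6, and its call was lost without T30S1 (adjusted p 0.0723) or T6N2 (0.051). Its later changes were 1.09, 1.35, -1.50 and 0.98, each with an SE of 1.00 or more.

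Ugt2b38, a glucuronosyltransferase, had the largest fitted change of the sex-biased list at T198, without passing the test. It stood at 5.09, 5.37 and 6.50 log2 CPM at T30, 3.27, 3.89 and 3.91 at T78 and 4.40, 4.88 and 4.91 at T198, against 2.79, 2.84, 2.90, 3.86 and 4.31 in ZT6 controls. The T198 livers were above all controls and below all T30 livers. At ZT0 the level was 3.46, 4.24 and 4.65 at T72 and 4.58, 4.58 and 5.67 at T192, against 3.25 to 5.11 in controls (median 3.98). The fitted change of Ugt2b38 was 2.52 ± 0.43 (SE) at T30 and 0.28, 0.56, 0.57 and 1.06 later, and the last had an interval of 0.17 to 1.96 and an adjusted p of 0.997. Ugt2b38 has a near-identical neighbour, Ugt2b37, so its share of reads is uncertain. Selenbp2, a selenium-binding protein gene of the same list, was higher by 2.16 at T30 and then had 0.24, 0.14, -0.12 and 0.23.

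Drug-metabolising enzymes had more lower than higher calls at T30, and the medians of their classes were near 0 later. Of 26 genes of the cytochrome P450 list, which also holds other genes such as Alas1, 5 were called lower (background 7.95%) and 1 higher at T30 (median -0.20). The lower count was 2 without T30S1, near the background, and 3 without T30S3 or T6N4. The medians later were 0.01, 0.02, -0.01 and 0.01 at T72, T78, T192 and T198, with 0 called. Of 26 conjugation enzymes, 9 were called lower (background 7.95%) and 1 higher at T30 (median -0.35; 5 lower without T30S1 or T30S3), and medians later were 0.11, 0.14, -0.02 and -0.09, with 0 called. Cyp3a25, an abundant member of the Cyp3a family, stood at 8.79, 8.84 and 9.22 log2 CPM at T30, 10.19, 10.39 and 10.43 at T78 and 9.98, 10.14 and 10.38 at T198, against 9.81, 10.28, 10.30, 10.48 and 10.77 in ZT6 controls. The T78 and T198 livers lay within the control range, and the T30 livers below it. For Cyp3a25 the fitted change was -1.38 ± 0.19 (SE) at T30 and 0.13, 0.00, 0.04 and -0.16 later, with intervals of -0.22 to 0.48, -0.37 to 0.38, -0.31 to 0.39 and -0.54 to 0.23. Sult1c2, a sulfotransferase, fell by 1.54 at T30 and then had -0.08, -0.13, 0.55 and -0.20.

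Genes of bile acid synthesis and sterol export, which clear cholesterol from the liver, held a few T30 calls. Of 20 bile acid genes, 4 were called lower (background 7.95%) and 1 higher (background 7.84%) at T30, with 2 lower without T30S1, and 0 later, with medians of 0.02, 0.05, -0.04 and -0.05 at T72, T78, T192 and T198. Abcg5, 1 subunit of the canalicular sterol exporter, stood at 5.86, 6.32 and 6.35 log2 CPM at T30, 7.10, 7.21 and 7.33 at T78 and 6.50, 6.65 and 7.04 at T198, against 6.61 to 7.23 in ZT6 controls. Later livers reached the control range or a little beyond it on either side. Its fitted change was -0.89 ± 0.18 (SE) at T30 and 0.17, 0.15, 0.23 and 0.07 later. Abcg8, its partner, fell by 0.72 at T30, a call lost without T30S1 (adjusted p 0.197), and then had 0.14, 0.11, 0.22 and 0.10. Cyp7b1, an oxysterol hydroxylase, was the 1 bile acid gene higher at T30, by 1.18, and then had 0.11, 0.06, 0.07 and 0.53.

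No glucocorticoid-responsive or clock gene passed the test on day 3 or day 8. Of 19 glucocorticoid-responsive genes 2 were called higher at T30, near the background of 7.84%, and 0 later. Fkbp5, a target gene of the glucocorticoid receptor whose product holds that receptor in check, stood at 5.88, 6.01 and 6.08 log2 CPM at T30, 3.98, 4.08 and 4.09 at T78 and 4.12, 4.54 and 5.0 at T198, against 4.17, 4.63, 4.76, 4.76 and 5.21 in ZT6 controls. All 3 T78 livers were below all controls. The fitted change of Fkbp5 was 1.37 at T30 and 0.26, -0.57, -0.27 and -0.28 later, with an adjusted p of 0.56 at T78. Of 22 core clock genes 3 were called lower at T30 (background 7.95%; 1 without T30S1 or T6N2) and 0 later, with medians of -0.09, -0.02, 0.04 and -0.02. Cry2, a repressor of the clock, fell by 0.68 at T30 and then had -0.17, -0.32, 0.17 and -0.20. Per2 had 0.34, 0.07, 0.24 and 0.31, and Dbp, a direct output of the clock, had -0.05, -0.13, -0.01 and 0.02. Lpin1, a clock output that makes diacylglycerol, was higher by 1.74 at T30 and then had -0.28, 0.17, -0.23 and -0.28.

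Lipid synthesis genes had medians above 0 at T78, but how many met an unadjusted limma p under 0.05 depended on single livers. The fitted T78 changes moved less. When any 1 library was left out, that of Hmgcs1 was 0.63 to 0.95, that of Fasn 0.84 to 1.11 and that of Lpin1 -0.16 to 0.34. Of 24 cholesterol synthesis genes 15 were higher at T78 at an unadjusted p under 0.05 (background 4.24%) and 0 were called after adjustment, with a median of 0.50, beside -0.06 at T72, -0.10 at T192 and 0.05 at T198. Without T6N3 3 of 24 met that p, without T78S2 7, and without T78S4 8. Of 20 lipogenesis genes 10 met it at T78 (median 0.40), 5 without T6N3 and 3 without T78S4. At T30 0 of the 24 cholesterol synthesis genes were called higher and 2 lower, near the background of 7.95%. Pnpla3, a lipid droplet hydrolase gene named after its values were seen, stood at 1.11, 1.86 and 3.19 log2 CPM at T78, against -1.51 to 0.98 in ZT6 controls, with a change of 2.38 and an adjusted p of 0.446. All 3 T78 livers were above all 5 controls for Pnpla3, without passing the test. Of 20 splicing genes (median 0.22 at T78) 10 were higher there at an unadjusted p under 0.05, and 5 or 6 when T6N3, T6N4, T78S3 or T78S4 was left out.

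**Figure D5:**
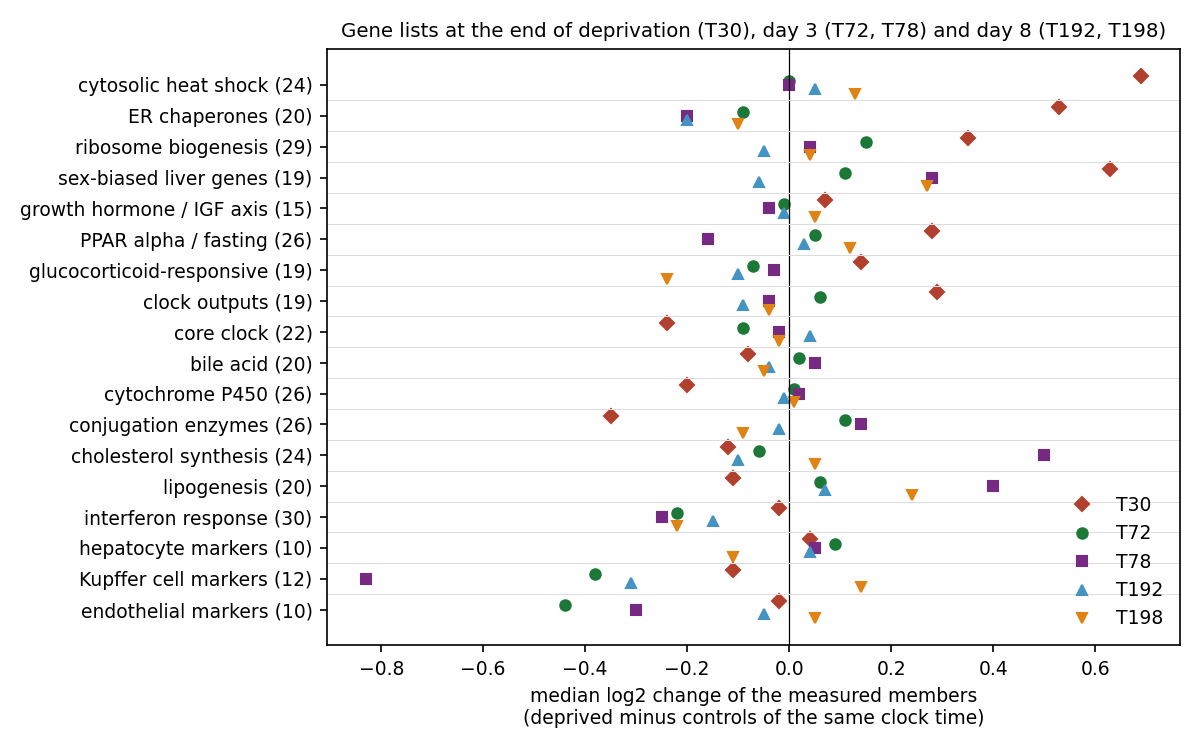
Median log2 change (x axis; deprived minus controls of the same clock time) of the measured members of 18 gene lists (rows, number of members in parentheses) at T30, T72, T78, T192 and T198. Heat-shock genes stand at 0.69 at T30 and within 0.13 of 0 later, while cholesterol synthesis (0.50) and Kupffer cell markers (-0.83) stand farthest from 0 at T78.

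Fgf21 and Pls1 had later values that lay mostly on 1 side of the controls, without passing the test. Fgf21, a fasting and stress hormone made by the liver (chr7:45613886-45615490, minus strand), stood at -1.0, -0.29 and 1.88 log2 CPM at T30, -0.51, 0.09 and 1.09 at T78 and -1.40, -0.22 and 1.37 at T198, against -3.18, -2.38, -2.23, -1.89 and -1.25 in ZT6 controls. The T78 livers were above all controls and so were 2 of the 3 T198 livers. At ZT0 it was -1.39, -0.33 and -0.00 at T72 and -1.81, -1.33 and -0.86 at T192, against -4.24 to -0.87 in controls (median -2.27). Fitted changes of Fgf21 were 1.95 ± 0.75 (SE) at T30, 1.02 ± 0.71 at T72, 1.98 ± 0.75 at T78, 1.34 ± 0.71 at T192 and 2.74 ± 0.78 at T198, with adjusted p of 0.0674, 0.767, 0.508, 1 and 0.917 in limma. It passed at no time with all libraries and the batch term (at T30 it passed without J76N1 or T30S3, without the batch covariate or with log2(CPM + 1)). Its level is low, and with 1 CPM added before the logarithm the change at T198 was 0.88. T30, T78 and T198 share the ZT6 controls, and T72 and T192 share the ZT0 controls, so these are not 5 separate observations. Fgf21 belongs to a list of 26 genes of PPAR alpha and fasting, of which 6 were called higher (background 7.84%) and 1 lower at T30 (0 higher without T30S4, 3 without T30S1) and 0 later, with medians of 0.05, -0.16, 0.03 and 0.12 at T72, T78, T192 and T198.

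Pls1, an actin-bundling protein of epithelial microvilli, fell by 2.03 ± 0.33 (SE) at T30 (chr9:95752642-95845311, minus strand). It stood at -2.14, -0.72 and -0.45 log2 CPM at T30, 0.03, 0.26 and 0.33 at T78 and -0.66, -0.60 and 0.08 at T198, against 0.27, 0.52, 0.65, 1.22 and 1.65 in ZT6 controls. At ZT0 it was -1.71, -0.82 and -0.66 at T72 and -0.22, -0.10 and 0.36 at T192, against -0.39 to 0.34 in controls (median 0.19). The T72 livers were below all 8 controls, and the T192 livers lay among them or just above (0.36 against 0.34). The level of Pls1 is low, down to -2.14 log2 CPM at T30. The fitted change of Pls1 was -1.23 at T72 (95% interval -1.85 to -0.60), -0.72 at T78, 0.01 at T192 and -1.16 at T198, with adjusted p of 0.532, 0.565, 1 and 0.917 in limma. Without T72S4, Pls1 was called on the day 3 average (adjusted p 0.045).

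Genes with the smallest p at each time did not pass with all libraries and are given as values. At T72 the smallest p among lower genes was that of Kat6b, a histone acetyltransferase, which stood at 3.96, 3.99 and 4.28 log2 CPM, against 4.44 to 4.69 in ZT0 controls (change -0.48 ± 0.10, SE; adjusted p 0.294), and among higher genes that of Bag2, an Hsp70 co-chaperone, at 1.66, 1.76 and 1.86, against 0.93 to 1.31 (change 0.61 ± 0.15; adjusted p 0.524). All 3 livers lay outside the control range for both. Neither was called at T30, where the changes were -0.13 and 0.05. Without T72S4, Kat6b was called at T72 (adjusted p 0.0327), and without the batch covariate Bag2 was called on the day 3 average (adjusted p 0.0305).

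At T78 the smallest p belonged to Mfsd14a, a transporter gene, at 5.01, 5.04 and 5.17 log2 CPM, against 4.63 to 4.85 in ZT6 controls (change 0.34 ± 0.07, SE; adjusted p 0.233), and to Rragd, a Rag GTPase that signals nutrient state to mTORC1, at 0.04, 0.36 and 0.81, against 1.06 to 1.62 (change -0.95 ± 0.22; adjusted p 0.296). Mfsd14a had also been called higher at T30, against the same ZT6 controls, with a change of 0.16 to 0.31 when any 1 library was left out. That call was lost in limma without T30S1 (adjusted p 0.26), T30S4 (0.0886), T6N3 (0.0736) or T6N4 (0.0656). Rragd had changes of -0.54 at T72, 0.11 at T192 and -0.13 at T198. On the day 3 average Rragd was called without T72S4 (adjusted p 0.0156), and Rragd (0.0262) and Mfsd14a (0.0305) were called without the batch covariate.

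At T192 the smallest p belonged to Anxa4, an annexin, at 5.54, 5.62 and 5.70 log2 CPM, against 5.32 to 5.65 in ZT0 controls (change 0.24 ± 0.07, SE; adjusted p 1), a gene that fell by 0.38 at T30. Spink5, a protease inhibitor, had the smallest p among lower genes, at -2.80, -2.51 and -1.67, against -2.60 to 0.19 (change -1.48 ± 0.41; adjusted p 1). Its T30 change was in the other direction, 0.98 to 1.34 when any 1 library was left out. At T198 the smallest p belonged to Ctcfl, a relative of the insulator protein CTCF, at -2.35, -2.05 and -0.92, against -0.56 to 0.41 in ZT6 controls (change -1.80 ± 0.40; adjusted p 0.579). The T30 change of Ctcfl was -1.12 to -0.71 when any 1 library was left out. Paqr9 stood at 7.72, 8.24 and 8.60 at T198, against 7.43 to 7.68 (change 0.63 ± 0.16; adjusted p 0.917), and it had been higher by 0.67 at T30, a call lost without T30S4 (adjusted p 0.0603). These lists changed in part from one time to the next: Kat6b had 0.04 at T78 and Mfsd14a had 0.03 at T192. Others kept their direction within day 3 when any 1 library was left out. Rragd had -0.73 to -0.31 at T72 and -1.15 to -0.77 at T78, and Bag2 had 0.56 to 0.66 and 0.24 to 0.46.

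Transcripts of other liver cells varied between livers, and in bulk RNA fewer cells of a type and less RNA per cell cannot be told apart. Of 12 Kupffer cell markers 10 were lower at T78 at an unadjusted p under 0.05 (background 3.97%), 0 after adjustment, with a median of -0.83; at T72, T192 and T198 the medians were -0.38, -0.31 and 0.14. Their summed level was 182 to 273 CPM at T78 and 497 to 759 CPM at T198, against 284 to 698 CPM in ZT6 controls, and 162 to 494 CPM at T72 and 226 to 584 CPM at T192, against 329 to 603 CPM in ZT0 controls. The T78 livers were below all controls. With batch 1 controls alone 1 marker met that p at T78, without J76N1 5, without T6N4 3, and without T78S3 or T78S4 1. Among defining markers (named after their values were seen), Adgre1 had -1.22, Clec4f -0.47, Marco -1.46 and Timd4 -0.84 at T78. At T30 0 of the 12 met that p.

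The 10 endothelial markers had a median of -0.44 at T72, -0.30 at T78, -0.05 at T192 and 0.05 at T198. At T72 1 of 10 was lower at an unadjusted p under 0.05 (background 3.82%). Their sum was 175 to 506 CPM at T72, against 311 to 608 CPM in ZT0 controls, and the lowest and highest T72 values belonged to T72S2 and T72S4. Of 30 interferon-response genes 12 were lower on the day 3 average at an unadjusted p under 0.05 (background 6.41%) and 5 on the day 8 average (background 1.43%), with 0 called on either and medians of -0.24 and -0.18. The day 3 count was 7 without T0N5, 5 without T72S2 and 4 without T72S3, and the day 8 count was 2 without J70S1, J76N2 or J76S2 and 3 without T6N3. Bile duct transcripts (named after their values were seen) were high in 2 ZT6 controls, and are the members of their lists farthest from 0 at T78 and T198: Krt19 stood at 0.60, 0.67, 0.95, 2.74 and 3.14 log2 CPM there, and Muc1 at -0.06, 0.11, 1.20, 3.17 and 3.81. Krt19 had changes of -1.59 at T78 and -1.40 at T198, with adjusted p of 0.485 and 0.997. The median of the 7 cholangiocyte markers was -0.25 at T78 and -0.16 at T198, with Sox9 at 0.53 at T198, and the median of the 3 gallbladder markers was 0.13 and -0.05, with Krt8 at 0.27 at T78. The part of cell makeup in the unadjusted counts of T72 and T78 was not tested.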

How the data were processed

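Liver RNA of 62 mice was measured; per the labels' protocols, stranded libraries of polyadenylated RNA were sequenced as single reads. The submitters' processing notes name fastp, STAR 2.7.0e, edgeR and mouse build mm10 (GRCm38). The values deposited by the authors are log2 CPM for 13373 entries, of which 35 had no gene name (0.0337% of the CPM) and were left out. Counts cannot be had from these values, so the depth of each library is unknown, and its effect on low values could not be gauged.

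The deposited log2 values were tested with limma 3.58.1 in R 4.3.3, without a pseudocount or filter: lmFit on all 62 libraries (17 groups and the label batch, 44 residual degrees of freedom), then eBayes with a mean trend. Tests were two-sided, with Benjamini-Hochberg adjustment over 13338 genes and a threshold of 0.05. Intervals are 95% limma intervals. The removed 3-level factor was found from the missing dimensions of the table. The T30 genes were called in the same fit. P-values measure the spread between mice. The scripts were tested on simulated data.

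The members, lists and tests were chosen with earlier results of these data known. Named were the 15 largest T30 changes in each direction with separate groups, the 5 smallest p in each direction at a later time, up to 6 members per list by p at T30 and a set of genes reported always; of these the text describes the ones that carry a group, gene models are not named, and genes chosen later are marked. Positions are GENCODE's for GRCm38 (13303 genes matched), promoters RefSeq's. Alternatives were other batch terms, controls, scalings, filters and variance models, and single libraries left out.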

Additional observations from a re-analysis of the deposited data

Results flagged for a closer look

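Of 174 groups of 4 to 10 livers of the reported genes, 15 had a library far from the others, where chance alone gives about 1 in 20 groups. Control T6N3 accounted for 7 of them at ZT6. It was the highest for Hsph1 (5.81 log2 CPM, others 4.19 to 4.41), Stip1 (6.25, others 5.66 to 5.81), Chordc1 (5.48, others 4.90 to 4.97), Syvn1 (6.79, others 5.84 to 6.01), Hspa5 (9.93, others 9.02 to 9.22) and Hyou1 (7.90, others 6.89 to 7.05). It was the lowest for Selenbp2 (7.30, others 9.30 to 10.08). T6N2 was the lowest ZT6 control for E2f8 (-0.17, others 0.82 to 1.21).

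Among ZT0 controls the highest values far from the others were T0N2 for Hsph1 (6.78, others 6.06 to 6.39), T0N1 for Ppan (4.04, others 3.43 to 3.69), J70N1 for Pgrmc2 (5.88, others 5.50 to 5.63) and T0N3 for Pnpla3 (2.41, others -0.49 to 0.82). The lowest were T0N5 for Selenbp2 (9.01, others 9.84 to 10.55) and for Acss2 (7.56, others 8.20 to 8.75), and T0N9 for Arntl (5.08, others 5.40 to 5.67). Groups of 3 livers were not tested.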

How the results depend on the processing

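Calls at T192 and T198, on the day 8 average and among T30 genes at T78, T192 and T198 stayed at 0 in all 38 other fits. Without a batch covariate 10 genes were called on day 3 and 13 between day 8 and day 3, and the median of the T30 risers at T78 was 0.092. Leaving out 1 of 28 libraries gave 792 to 2168 genes at T30, 0 to 12 at T72 and 0 to 31 on day 3 (12 and 31 without T72S4), 0 to 1 at T78 and 0 to 6 T30 genes called at T72. It moved the riser medians between 0.015 and 0.152 at T72, 0.041 and 0.102 at T78, -0.056 and -0.01 at T192 and 0.105 and 0.149 at T198. The faller medians moved between -0.131 and -0.027, -0.079 and -0.008, 0.016 and 0.059, and -0.135 and -0.095.

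With log2(CPM + 1) the riser median at T198 was 0.096, and in the 28 libraries alone the medians there were 0.126 and -0.129. With same-batch controls they were 0.070 and -0.091, and the riser median at T78 was 0.129. With 432 risers and 516 fallers above 1.5-fold, the medians were 0.108 and -0.088 at T78 and 0.174 and -0.173 at T198, the faller median was 0.074 at T192, and 41.5%, 38.6%, 48.7% and 35.7% lay within 1.5-fold at T72, T78, T192 and T198. The riser median at T198 was 0.128 with T30 genes at an adjusted p under 0.01 and also with those called against batch 1 controls. With the replicate block by animal code number the riser medians were 0.102 at T78 and 0.094 at T198, and 1931 genes were called at T30; the numbers do not pair the mice (correlations of deviations -0.245 to 0.224). The 3-level factor as a covariate gave 1709 genes at T30. Of the 60 named genes called at T30, 20 lost the call in at least 1 of these fits, 19 of them when 1 library was left out. The causes were not tested.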
